A study of Homo sapiens with 2 samples.

Results

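The subject is a stretch of 800 positions of human 28S rRNA, from just after position 2090 to just before position 2891 in the numbering of the deposited table. It takes in about domain III with the expansion segment ES15L and the first helices of domain IV. The stretch was set by position alone, and it holds 800 of the 5070 positions of 28S and of the 6940 positions of the table. The domain names are approximate, and the table carries no structural annotation against which they could be checked. Coverage came from 1 CLIP-seq library labelled ZAK-alpha-RBR and 1 library labelled mock, both from U2OS cells, a human osteosarcoma line, and CLIP-seq reads the RNA fragments recovered with a protein. The labels give no treatment, and they do not say what the mock pull-down contained. With 1 library per group there is no replicate check, so differences are described with counting intervals, and no test between the libraries or p-value was possible.

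28S rRNA is the main RNA of the large ribosomal subunit and folds into domains around a core shared by all organisms, while expansion segments such as ES15L are insertions that in mammals are long and rich in G and C. Domain III lies near the opening of the tunnel through which the new protein leaves the ribosome, and domain IV forms much of the face that meets the small subunit. ZAKα is a stress kinase, encoded by MAP3K20, that senses stalled ribosomes and sets off the ribotoxic stress response, and the comparison asks where on the ribosome the construct lies.

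The values below are coverage in parts per 1000000 of a library's summed coverage (ppm) or the unscaled read depth, that is, how many reads span a position. In the stretch the ZAK-alpha-RBR depth had a median of 821.5 reads and ran from 11 to 2399, and the mock depth had a median of 10169 and ran from 75 to 28785. The ZAK-alpha-RBR values therefore carry the larger counting error. Single-position folds have exact 95% intervals, which cover counting error only and treat every read as a separate molecule. Log2 ratios are ZAK-alpha-RBR over mock after 1 ppm was added to both.

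The sequences that carry the differences are shown 5′ to 3′ as the deposited table gives them, with 10 bases on each side. Capitals mark the region in which the libraries differed, as called by the rule given further on. The topmost was higher with ZAK-alpha-RBR, and the others were lower.
28S 2107 to 2147: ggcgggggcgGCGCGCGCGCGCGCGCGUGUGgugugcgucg
28S 2332 to 2389: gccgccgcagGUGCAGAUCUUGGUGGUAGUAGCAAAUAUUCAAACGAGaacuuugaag
28S 2407 to 2443: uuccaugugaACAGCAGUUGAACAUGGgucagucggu
28S 2777 to 2812: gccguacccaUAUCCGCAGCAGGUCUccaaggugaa
The higher region is an alternation of G and C with 90.5% G and C and no C directly before an A, a pair called a C-A step below. The lower regions hold 42.1%, 47.1% and 56.3% G and C, and 3, 3 and 2 C-A steps.

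As a whole the stretch took nearly the same part of both libraries. It held 16.7% of the 28S coverage with ZAK-alpha-RBR (95% exact binomial interval 16.5 to 17.0) and 16.0% with the mock (15.9 to 16.1), for 15.8% of the length of 28S. The intervals rest on the smallest number of reads that the upward steps of the profile require. The mean level was 134.4 ppm with ZAK-alpha-RBR and 134.1 ppm with the mock. The 800 positions just upstream held 19.6% and 21.5% of the 28S coverage, and the 800 just downstream 9.36% and 7.10%. The near equality hides a split inside the stretch: over the first 200 positions ZAK-alpha-RBR averaged 101 ppm and the mock 55.6 ppm, and over the other 600 they averaged 146 and 160 ppm.

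**Figure D1:**
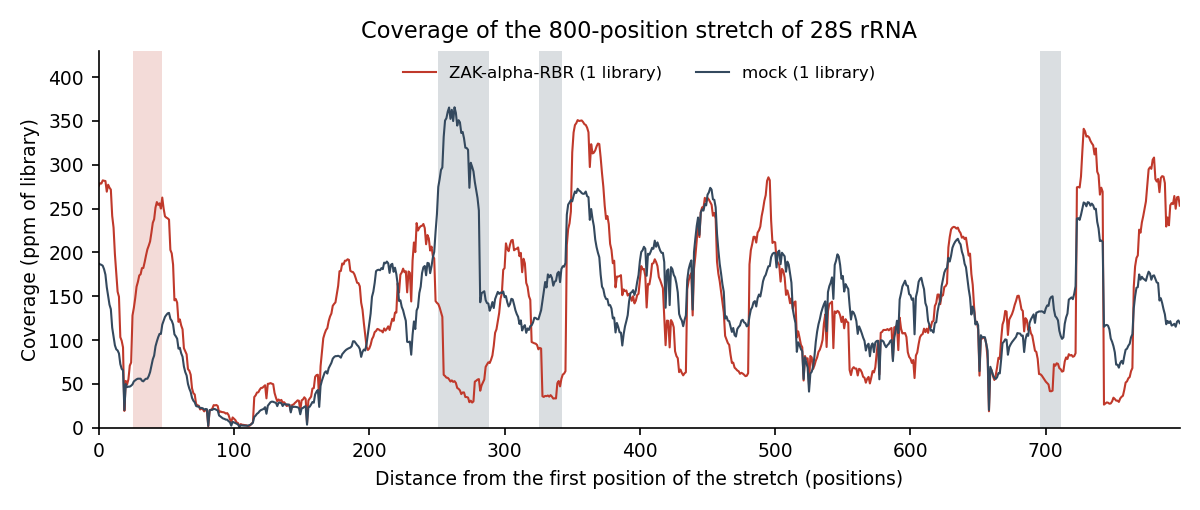
Coverage in ppm (y axis) at each of the 800 positions, by distance from the start of the stretch (x axis), with 1 line per library and no replicates. Red shading marks the called higher region and grey shading the 3 lower regions; the mock line reaches 366 ppm in the first grey region, where the ZAK-alpha-RBR line lies near 53 ppm.

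Cut into 8 blocks of 100 positions, the stretch began higher with ZAK-alpha-RBR, turned sharply lower in block 3 and then ran close to the mock. Block 1, which ends at position 2190, averaged 130 ppm for ZAK-alpha-RBR and 69.0 ppm for the mock, a log2 ratio of 0.91. Block 2, positions 2191 to 2290, had 71.1 and 42.1 ppm, a log2 ratio of 0.74. Both lie in the part of highest G and C content, 84% in each, and neither holds a position at least 2-fold lower with ZAK-alpha-RBR.

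Block 3, positions 2291 to 2390, averaged 116 ppm for ZAK-alpha-RBR and 208 ppm for the mock, a log2 ratio of -0.83. Among the 49 blocks of 100 positions laid over 28S in the same frame, it had the lowest ratio, and the lowest outside the stretch was -0.57. Blocks 1 and 2 ranked 4 and 5 from the top, under a highest value of 1.16 elsewhere. Blocks share no positions, but reads that cross a border count in both neighbours, and the low value of block 3 rests on 1 place, positions 2342 to 2379: its other 62 positions had 152 and 159 ppm, a log2 ratio of -0.06.

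Blocks 4 to 8 had log2 ratios between -0.28 and 0.20. Block 6, positions 2591 to 2690, was the lowest of them with 105 and 128 ppm, and block 8, from position 2791 on, the highest with 175 and 152 ppm. Block 8 was also the most uneven of these: in it 11 positions passed the 2-fold limit upward and 20 downward. Block 7, with 127 and 129 ppm and a log2 ratio of -0.02, was nearly level, and its value turns to 0.04 when the libraries are scaled within 28S.

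**Figure D2:**
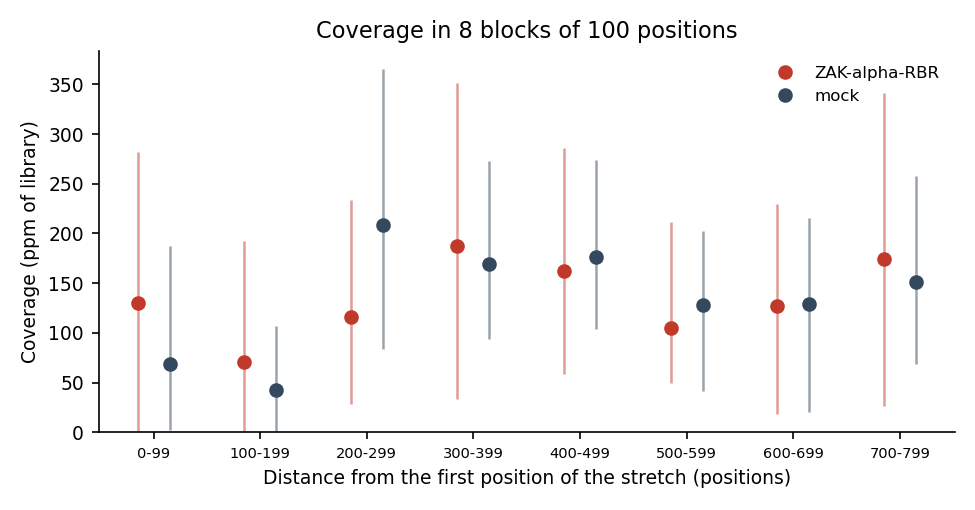
Mean coverage in ppm (y axis, points) of the 8 blocks of 100 positions, by distance from the start of the stretch (x axis), for 1 library each. The vertical lines run from the lowest to the highest position of the block and are no error bars; the mean of the mock is 208 ppm in block 3 and that of ZAK-alpha-RBR 116 ppm.

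ZAK-alpha-RBR exceeded the mock by 2-fold or more at 58 of the 800 positions, which is 7.25%, against 9.91% of the other 4270 positions of 28S and 9.31% of the whole table. At least 2-fold lower were 83 positions, 10.4%, against 10.8% in the rest of 28S and 11.9% of the whole table. Both shares are near or under the background. The stronger differences ran in 1 direction: 39 positions, 4.88%, were at least 4-fold lower, against 2.15% of the rest of 28S and 2.55% of the table, and 0 were at least 4-fold higher, against 0.726% and 0.749%. Of the 39, 27 form a single run at 2346 to 2372, 10 lie at 2420 to 2429 and 2 at 2834 to 2835. Neighbouring positions share reads, so these runs count as 3 places and not as 39 observations.

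To call regions, each profile was averaged over 15 positions, and a run of 10 positions or more was taken where the log2 ratio differed from the 28S median of 0.15 by 2-fold or more. The stretch has 1 of the 9 higher and 3 of the 23 lower regions of 28S. The higher region covers 2.63% of the stretch, against 3.45% of 28S inside higher regions, and the lower regions cover 8.88%, against 9.29%. A run at 2840 to 2848 passed the fold but was 1 position too short. The next run below that was a single position, 2653.

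**Figure D3:**
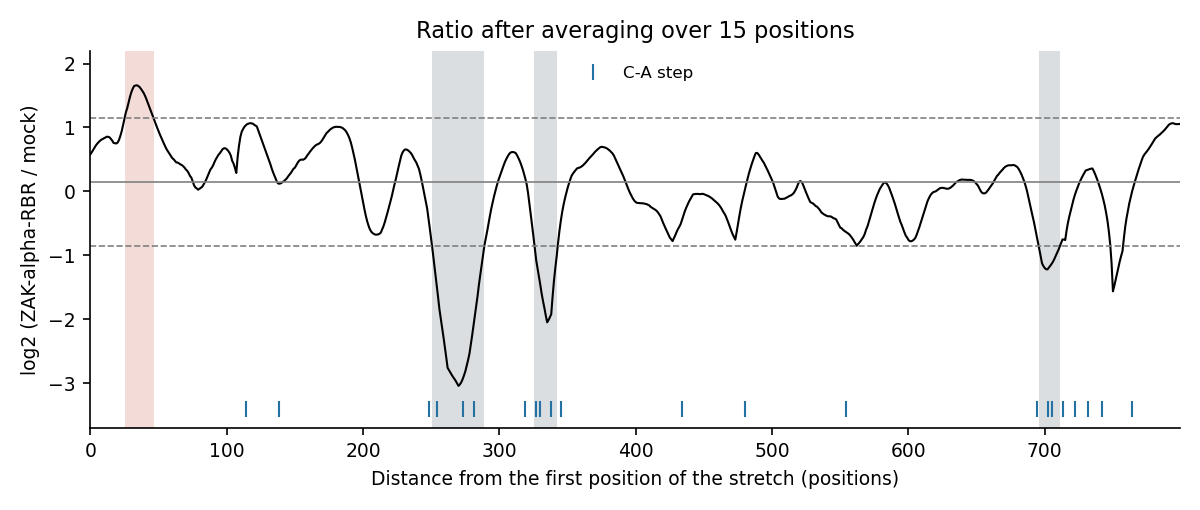
Log2 ratio of ZAK-alpha-RBR over mock (y axis) after averaging over 15 positions, by distance from the start of the stretch (x axis). The grey line is the median of 28S, the dashed lines lie 2-fold above and below it, shading marks called regions and blue ticks the 22 C-A steps; the curve peaks at 1.66 and has its low point at -3.04.

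The higher region, positions 2117 to 2137, lies in the G and C alternation at the start of the stretch. It had a mean of 205 ppm with ZAK-alpha-RBR and 69.9 ppm with the mock, 2.93-fold apart. At position 2120 the depth was 1138 reads against 4414 in the mock, which after scaling is 2.97-fold higher (2.78 to 3.17). The highest ratio was at position 2127, with 1391 against 4411 reads, 3.63-fold (3.42 to 3.86).

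The 2 profiles had different shapes there. ZAK-alpha-RBR coverage climbed from 137 ppm at position 2117 to 250 ppm at position 2137, while the mock had 53.0 ppm at 2117 and 56.0 ppm at 2127, and climbed after that to 70.8 ppm at 2130 and 107 ppm at 2136. The 20 positions before the region were 1.78-fold and the 20 after it 1.63-fold higher with ZAK-alpha-RBR, so the region stands on a broad excess. By averaged ratio it ranked 3 among the 9 higher regions of 28S.

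Short repeats make the placement of reads a concern in this part, and how reads with several possible places were treated is not given in the sources used here. Of the 781 words of 20 bases in the stretch, 6 occur more than once in the 18S and 28S sequences of the table. All 6 lie in positions 2150 to 2174, a row of GGC triplets downstream of the higher region, shown in capitals.
28S 2140 to 2184: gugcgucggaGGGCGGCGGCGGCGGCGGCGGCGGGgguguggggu
Coverage declined along that row in both libraries. Position 2150 had 826 reads for ZAK-alpha-RBR and 7112 for the mock, 1.34-fold (1.24 to 1.44), position 2163 had 186 and 1962, 1.09-fold (0.935 to 1.27), and position 2174 had 140 and 1611. The higher region itself has no word that recurs. Words elsewhere in the genome were not analysed here.

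The next block is C-rich, and both libraries nearly lost coverage in it. The bases around the first C-A step of the stretch, with that step in capitals, show the run of C that precedes it.
28S 2190 to 2239: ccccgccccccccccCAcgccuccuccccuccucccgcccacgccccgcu
At the C, position 2205, the depth was 42 reads with ZAK-alpha-RBR (30.3 to 56.8) and 470 with the mock. At the A, position 2206, it was 240 (211 to 272) and 974. The ratio went from 1.03-fold (0.732 to 1.41) to 2.84-fold (2.45 to 3.27) within this 1 step, and the 10 positions from 2206 to 2215 all passed the 2-fold limit. This place was called as a region only when library totals served as the baseline or the limit was 1.5-fold. Further on, at 2269 to 2276, another 8 positions passed it, with 1274 against 6756 reads at position 2272, 2.17-fold (2.04 to 2.31).

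The lowest ratio of the stretch lay at positions 2342 to 2379, where the mock had its highest coverage of the 800 positions and ZAK-alpha-RBR dipped. The 38 positions had a mean of 57.8 ppm with ZAK-alpha-RBR and 289 ppm with the mock, 4.99-fold lower. They held 2.04% of the stretch's ZAK-alpha-RBR coverage and 10.2% of its mock coverage. On both sides the libraries were close: the 20 positions before had 204 and 166 ppm, and the 20 after had 156 and 146 ppm.

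The profile across it went in steps. At position 2340 the depth was 988 reads for ZAK-alpha-RBR and 17609 for the mock. At the C-A step of 2345 and 2346 it went from 865 to 413 reads with ZAK-alpha-RBR, while the mock went from 23379 up to 26124. The mock reached its highest depth at position 2354, with 28785 reads against 364, where ZAK-alpha-RBR was 6.86-fold lower (6.19 to 7.63). The lowest ratio of a single position was at the A of position 2367, with 197 against 23449 reads, 10.3-fold lower (8.98 to 11.9).

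The mock came down from its peak partly by a slope and partly at 1 step. Its depth was 28785 reads at 2354 and 19516 at 2372, and between the C of 2372 and the A of 2373 it went to 11277, the deepest single fall of the mock in the stretch, while ZAK-alpha-RBR went from 380 to 289. At 2373 ZAK-alpha-RBR was still 3.39-fold lower (3.01 to 3.82). From there ZAK-alpha-RBR recovered gradually, to 511 reads at 2379, 768 at 2385 and 1245 at 2391, where it was 1.22-fold higher (1.15 to 1.30). Before that, ZAK-alpha-RBR had stepped up from 206 reads at 2368 to 360 at 2369, while the mock went from 23031 to 22082. There the ratio went from 9.71-fold to 5.32-fold lower. The ZAK-alpha-RBR trough thus has a stepped 5′ edge, and a 3′ edge with a step at 2369 and a slope after 2373.

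**Figure D4:**
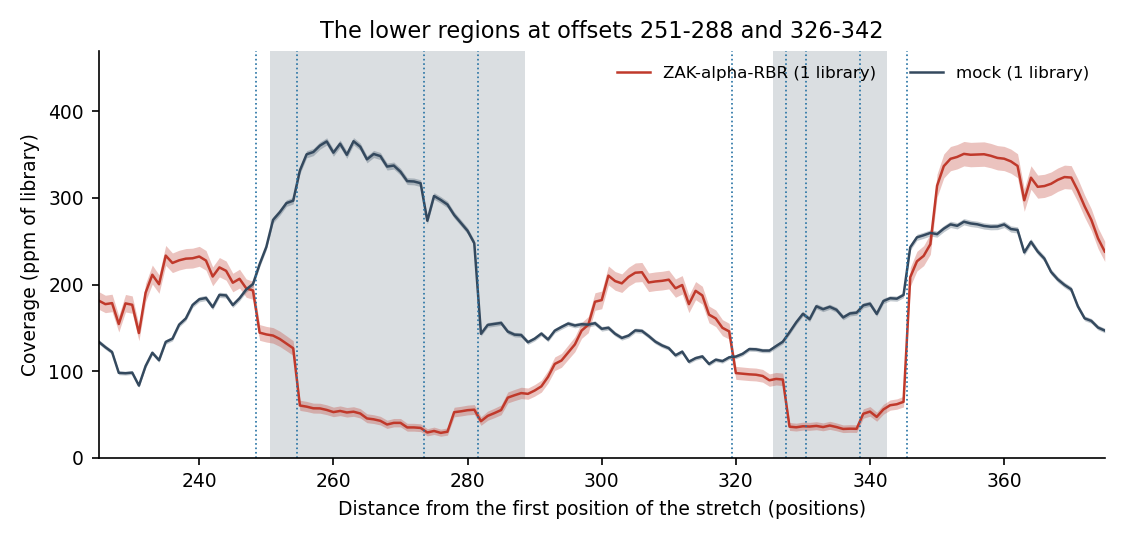
Coverage in ppm (y axis) across 2 of the lower regions (grey), by distance from the start of the stretch (x axis); bands are exact 95% Poisson intervals of the read depth and dotted lines the C-A steps. The ZAK-alpha-RBR line drops at the dotted line after distance 254, from 127 to 60.4 ppm, where the mock line goes up, and the mock line drops after distance 281.

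The next lower region, positions 2417 to 2433, had a mean of 45.8 ppm with ZAK-alpha-RBR and 164 ppm with the mock, 3.57-fold lower. Here the mock showed no peak of its own, and its depth went, with small reversals, from 10558 reads at position 2418 to 14261 at 2433. ZAK-alpha-RBR formed a trough between steps: 998 reads at position 2410, 618 at 2418, 246 at 2419, 229 at 2429, 442 at 2436 and 1426 at 2437. At position 2426 the depth was 243 against 13461 reads, 4.81-fold lower (4.24 to 5.48). Its edges at 2418 and 2436 are both C-A steps.

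The remaining one, positions 2787 to 2802, was shallower. Its mean was 58.6 ppm with ZAK-alpha-RBR and 132 ppm with the mock, 2.26-fold lower, and by averaged ratio it ranked 20 among the 23 lower regions of 28S. Position 2796 had 290 against 11810 reads, 3.54-fold lower (3.15 to 3.99). The 20 positions before it had 117 and 113 ppm and the 20 after it 181 and 186 ppm.

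The run that just missed the length limit lies downstream of that region, a few positions after the largest fall of ZAK-alpha-RBR in the stretch. It is shown in capitals.
28S 2830 to 2858: gaacaauguaGGUAAGGGAagucggcaag
Its 9 positions had 32.7 ppm with ZAK-alpha-RBR and 79.3 ppm with the mock. Without averaging, the positions at least 2-fold lower extended from 2834 to 2847. At position 2834 the depth was 181 against 9074 reads, 4.35-fold lower (3.76 to 5.07). With averaging over 5 positions in place of 15, this place was called as a lower region as well, at 2836 to 2849.

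The highest ZAK-alpha-RBR coverage of the stretch lay where the mock was high too. Its top position was the C of position 2445, just downstream of the lower region at 2417 to 2433, with 2399 reads and 351 ppm against 21468 reads and 273 ppm, 1.29-fold higher (1.23 to 1.34). Next came position 2819, with 341 ppm against 257 ppm, 1.33-fold (1.27 to 1.39). Positions 2445 and 2822 are also among the 5 highest peaks of the mock, taken at least 25 positions apart.

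The other ZAK-alpha-RBR peaks were at positions 2871, 2586 and 2094. Position 2871 had 308 against 174 ppm, 1.77-fold (1.69 to 1.86), position 2586 had 286 against 184 ppm, 1.55-fold (1.48 to 1.63), and position 2094 had 282 against 185 ppm, 1.53-fold (1.46 to 1.60). The mock peaks not shared were position 2354, inside the lowest region, position 2543 with 274 against 257 ppm, and position 2726 with 216 against 228 ppm. At 2543 the fold of ZAK-alpha-RBR over mock was 0.940 (0.895 to 0.987) and at 2726 it was 1.06 (1.01 to 1.12), so at these peaks the libraries lay far closer than at 2354.

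At both borders of the stretch the log2 ratio was above 0. The last 8 positions, from 2883 on, were all above the 2-fold limit, with 1708 against 9079 reads at position 2887, 2.17-fold (2.06 to 2.28), and the 800 positions beyond had a median log2 ratio of 0.47. The 800 positions before the stretch had a median log2 ratio of -0.21 over single positions, and means of 157 ppm with ZAK-alpha-RBR and 180 ppm with the mock. The 0.91 of block 1 is instead the log2 ratio of its means over 100 positions, 130 and 69.0 ppm. With 50 positions taken off each end, the log2 ratio of the share of 28S turns from 0.07 to -0.06.

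Among single bases, A and U were over-represented in the lower positions. Of the 132 A, 18.9% were at least 2-fold lower with ZAK-alpha-RBR, and of the 125 U, 16.0%, against 5.51% of the 236 C and 8.14% of the 307 G. The rest of 28S had 20.4% of its A, 14.3% of its U, 7.82% of its C and 8.05% of its G. Over windows of 15 positions the averaged log2 ratio correlated with the G and C content at r = 0.51 across the 800 positions, and at 0.50 across the rest of 28S. Without the positions of the lowest region r was 0.40. The log2 level of each library fell with G and C content, at r = -0.17 for ZAK-alpha-RBR and -0.53 for the mock. In the rest of 28S these were -0.53 and -0.70. These positions share reads, windows and the 2 libraries, and the values are a description.

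Steps in coverage were over-represented at C-A steps in both libraries, and more so with ZAK-alpha-RBR. The stretch has 22 of them, 2.75% of its neighbouring pairs. They held 14.7% of the summed falls of depth in the ZAK-alpha-RBR library (95% exact binomial interval 14.2 to 15.1) and 9.41% in the mock (9.30 to 9.53), and 19.1% and 10.7% of the summed rises. A few steps dominate these shares of the falls and of the rises. The fall between positions 2833 and 2834 alone made up 6.31% of all ZAK-alpha-RBR falls, and its share of the mock falls was 3.17%. Another 3.42% of the mock falls lay between 2372 and 2373. Of the ZAK-alpha-RBR rises, 4.94% lay between 2813 and 2814 and 3.76% between 2436 and 2437, against 2.58% and 1.84% of the mock rises. The intervals take every lost read as a separate draw and do not cover this dependence. In the rest of 28S the C-A steps held 18.3% and 11.2% of the falls, for 3.44% of the pairs. A larger share with ZAK-alpha-RBR was not particular to C-A. In the stretch, C before C held 6.13% of the ZAK-alpha-RBR falls and 1.58% of the mock falls. C before G held 22.8% and 21.2%, and C before U 4.90% and 5.21%. All pairs that start with C together held 48.5% and 37.4%, for 29.5% of the pairs.

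Counted in reads, the largest rise and fall of ZAK-alpha-RBR in the stretch bound 1 segment of 20 bases in block 8, shown in capitals with 10 bases on each side.
28S 2804 to 2843: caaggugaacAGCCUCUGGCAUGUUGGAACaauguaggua
At the step into it, positions 2813 and 2814, the depth went from 582 to 1875 reads with ZAK-alpha-RBR and from 12717 to 18792 with the mock. At the step out of it, positions 2833 and 2834, it went from 1841 to 181 and from 16703 to 9074. Between these steps ZAK-alpha-RBR averaged 305 ppm and the mock 243 ppm, 1.26-fold apart. The segment is thus a peak in both libraries at similar height, and the difference lies in what surrounds it.

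Both signs of change occurred at these steps, and 19 of the 22 (86.4%) were larger on the log2 scale in the ZAK-alpha-RBR library, near the 122 of 147 (83.0%) in the rest of 28S. The depth fell by at least 20% at 8 of them and rose by at least 20% at another 8 with ZAK-alpha-RBR. That is 36.4% each, against 35.4% and 37.4% in the rest of 28S. In the mock there were 2 such falls and 5 such rises, 9.09% and 22.7%, against 12.2% and 20.4%. The stretch thus resembled the rest of 28S in these counts. In proportion, the largest rise at a C-A step was that at 2205, from 42 to 240 reads. Counted in reads, the 5 largest rises of ZAK-alpha-RBR, at positions 2813, 2436, 2571, 2525 and 2855, were all at C-A steps, and so were 4 of its 8 largest falls. Of the 8 largest rises of the mock 2 were at such steps, and of its 8 largest falls 2.

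**Figure D5:**
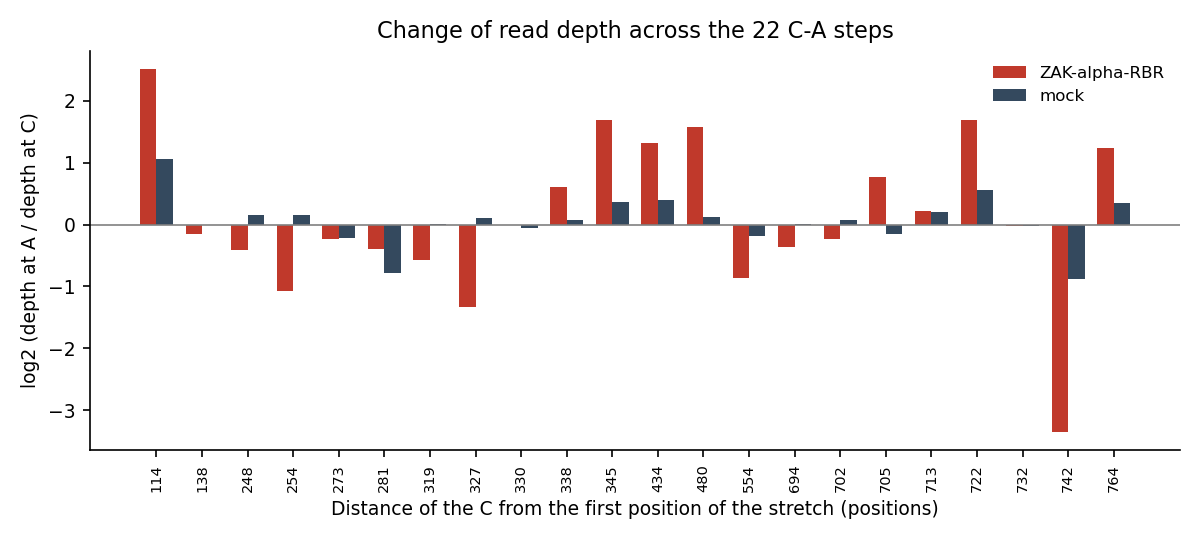
Change of read depth from the C to the A (y axis, log2) at each of the 22 C-A steps, placed by the distance of the C from the start of the stretch (x axis), 1 bar per library. The ZAK-alpha-RBR bars are the longer ones at 19 of the 22 steps, and the lowest bar is the fall from 1841 to 181 reads.

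The lower positions lay close to these steps. Of the 189 positions within 5 positions of a C-A step, 33.9% were at least 2-fold lower with ZAK-alpha-RBR, and the median log2 ratio was -0.66. Of the 611 positions farther away 3.11% were, with a median of 0.24. In the rest of 28S the shares were 26.2% of 1292 positions and 4.13% of 2978. Of the near positions 2.65% were at least 2-fold higher and of the farther ones 8.67%, against 2.94% and 12.9% in the rest of 28S. Most lower positions of the stretch lie in the runs 2343 to 2377, 2419 to 2436, 2786 to 2796 and 2834 to 2847. Positions of a run share reads, so the shares in the stretch rest on these few places.

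Between its C-A steps the stretch has 21 segments, of which 16 are at most 40 positions long. The piece before the first step, which holds the called higher region, and the piece after the last step are not among them. Of these short ones 12 (75%) had a negative log2 ratio, 8 of them (50%) at -1 or below. Of the 110 such segments in the rest of 28S, 76.4% were negative and 33.6% at -1 or below. Several of the 8 adjoin, as 2346 to 2364 and 2365 to 2372 do, and lie in the lower regions already called. Adjoining segments share reads, so the 8 are not separate observations and the 50% is no measure of an excess. Of the 5 long segments among the 21, 3 were above 0. Among the 21 the lowest was 2346 to 2364, with 47.9 ppm against 345 ppm. The highest of them was 2206 to 2229 in the C-rich part, with 39.7 ppm against 23.7 ppm. How cutting of the RNA at these steps, base content and contact with the protein share in the differences was not tested.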

How the data were processed

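Per the labels' protocols, RNA from each pull-down was extracted with phenol-type reagents, joined to adaptors by a modified Arabidopsis tRNA ligase and sequenced on the Ion Proton. The submitters' processing notes name cutadapt 2.0 and Bowtie2 2.3.4.1. For the reference, the settings and the handling of strand, duplicates and reads with several places, nothing is given in the sources used. The deposited values are a coverage signal per rRNA position, called normalized reads per the file headers. The authors' 2 columns have the same sum, 78749474. The ZAK-alpha-RBR values are whole multiples of 11.5 (100% within 0.001 of a read), which returns the unscaled depth, 6835941 in total. No column was left unmapped.

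Values were divided by each library's sum over 18S and 28S (ppm), with a pseudocount of 1 ppm in ratios. Intervals are exact Poisson, exact binomial (Clopper-Pearson) and, for the fold of 2 depths, exact conditional binomial ones, at 95%. Steps in coverage are differences of depth between neighbours. Every called region, the 5 highest peaks of each library at least 25 positions apart, the most extreme ratios among positions above the lower quartile of mean level in 28S, and all 8 blocks of 100 positions are named. The C-A steps, the segments between them and the 20% limit were chosen after values were seen. The stretch and these rules were chosen with earlier results of these data known. The region rule was also run on reads simulated from the mock profile of 28S with planted changes. Such reads carry counting error only and no other difference between libraries. Python 3.11.15, numpy 2.4.6, pandas 2.3.3, scipy 1.17.1 and matplotlib 3.10.9 were used.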

Additional observations from a re-analysis of the deposited data

How the results depend on the processing

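The counts of positions at least 2-fold apart stayed within 1.5 times under the 6 alternatives of scaling, pseudocount, filter and filled dips at runs of equal bases, with 41 to 67 higher and 72 to 109 lower; without the positions of the lowest region, which was tried only after seeing the data, 48 lower positions were left. The higher regions numbered 3 at a 1.5-fold limit, 0 at 3-fold and 2 with library totals as the baseline. The lower regions numbered 8 at a 1.5-fold limit, and 1 each with averaging over 31 positions and with at least 20 positions, which left 2342 to 2379 alone. Over 31 positions the averaged log2 ratios at 2417 to 2433 and 2787 to 2802 were -0.94 and -0.82. The log2 ratio of the share of 28S, 0.07, was -0.062 with 50 positions off each end, 0.0022 as a share of 18S and 28S together and 0.19 without the lowest region. The level of block 7 turned from -0.02 to 0.040 with scaling within each molecule. The excess of falls at C-A steps, 5.25 percentage points, was 6.92 with filled dips (18.6% against 11.7%). Much of the 5.25 points rests on the 1 fall between 2833 and 2834, with 6.31% of the ZAK-alpha-RBR falls and 3.17% of the mock falls. With scaling by the median of ratios all log2 ratios shifted, and the 28S median was 0.05 in place of 0.15. No paired analysis was possible because each group has 1 library, and no replicate could be left out. Depth limits the ZAK-alpha-RBR values most in block 2, with a median of 301.5 reads. The cause of these changes was not tested.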
